A study of Rattus norvegicus with 2 samples.

Results

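Glycolysis is the cytosolic pathway that splits glucose into pyruvate, with a small yield of ATP, and lactate dehydrogenase turns pyruvate into lactate when it is not burned in mitochondria. In the kidney the proximal tubule makes glucose and burns fatty acids, while distal segments and red cells rely more on glycolysis. The glycolysis enzyme genes described here are 10 genes, Hk1, Hk2, Gpi, Pfkl, Aldoa, Gapdh, Pgk1, Pgam1, Eno1 and Ldha, out of 16484 number-only gene IDs in the deposited table of urine RNA, and they were chosen by symbol. They cover every step from glucose to lactate except those of Tpi1 and of pyruvate kinase.

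RNA was sequenced from the urine of Sprague Dawley rats in 2 libraries, 1 labelled WT and 1 labelled UUO (unilateral ureteral obstruction), both from rats aged 8 weeks, or post natal day 56. In UUO rats the right ureter was tied off, and WT rats had the same operation without ligation, so that WT here names sham surgery and not a genotype. Urine was collected 2 weeks after surgery, by catheter from the ureter in both groups, keeping only what the kidney newly made late in the collection, and the number of rats behind each library is not given in the sources used here. With 1 library per group there is no replicate check, no test was run, and each difference describes these libraries alone. The deposited table names its conditions UrRf and Urc, which were read as UUO and WT. The study's own urine lists head the same values UUO and Sham. Every direction would turn around if the names were exchanged. Levels are FPKM, that is, fragments scaled to transcript length and to library size. Genes with FPKM of at least 1 counted as detected, and a difference is that of log2(FPKM + 1), UUO minus WT, counted at 2-fold (1 on this scale).

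The 2 libraries differed in their makeup. Markers are counted as higher or lower in UUO urine at 2-fold. Over all number-only genes detected in either library, 25.7% were higher and 36.5% lower by this limit. All 10 red cell marker genes were higher in UUO urine, summing to 3223 FPKM in WT and 89031 FPKM in UUO urine, and they held 0.955% and 32.8% of the FPKM of all number-only genes. Of 11 leukocyte markers 9 were higher and 8 were listed at 0 in WT but above 0 in UUO urine, with sums of 9.61 and 167, while the T-cell marker Cd3e was listed at 0 in both. The UUO library had more number-only genes at the detection limit or above, 9278 against 7793 for WT. How often genes at large were at 0 in WT alone is not given here. Of 9 proximal tubule markers 8 were lower, from a sum of 1144 FPKM in WT to 311 FPKM in UUO urine, and 0 of them were listed at 0. The 8 urothelium markers were mixed, with 3 higher, 1 lower and 4 within 2-fold, and summed to 1531 in WT and 2443 in UUO urine. Those of the loop, distal tubule and collecting duct summed to 227 and 174, with 2 higher, 1 lower and 5 within 2-fold. The lower one was Atp6v1b1, at 90.1 in WT and 30.7 in UUO urine. Marker RNA of urothelium and kidney cell types was thus seen in both libraries. The study's methods describe spinning the urine before freezing and again after thawing, and whether the RNA came from whole cells was not tested. In such bulk samples, fewer cells of a type and less RNA per cell cannot be told apart. The part of these markers in the glycolysis values was not tested.

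The 9 detected glycolysis genes each had a lower FPKM in UUO than in WT urine, and 6 of them were lower by at least 2-fold, while Gapdh came to a single fragment per library and gives no direction. Together the 10 genes summed to 1464 FPKM in WT and to 447 FPKM in UUO urine, 3.28 times higher in WT. The 6 genes past 2-fold were Hk2, Gpi, Aldoa, Hk1, Eno1 and Pgam1, and 0 genes were higher by 2-fold. Over 9853 number-only genes detected in either library, 36.5% were lower and 25.7% higher by 2-fold. Over the 7218 genes detected in both libraries, as 9 of the members were, 42.8% were lower and 7.01% higher by 2-fold, and 75.5% were lower by any amount. The median difference was -1.11 over the 10 members, -0.51 over all detected genes and -0.81 over genes detected in both. Over the 9 detected members it was -1.21. A lower value in UUO urine was therefore common among annotated genes, and the members' values are to be read against that shift of the whole table.

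**Figure D1:**
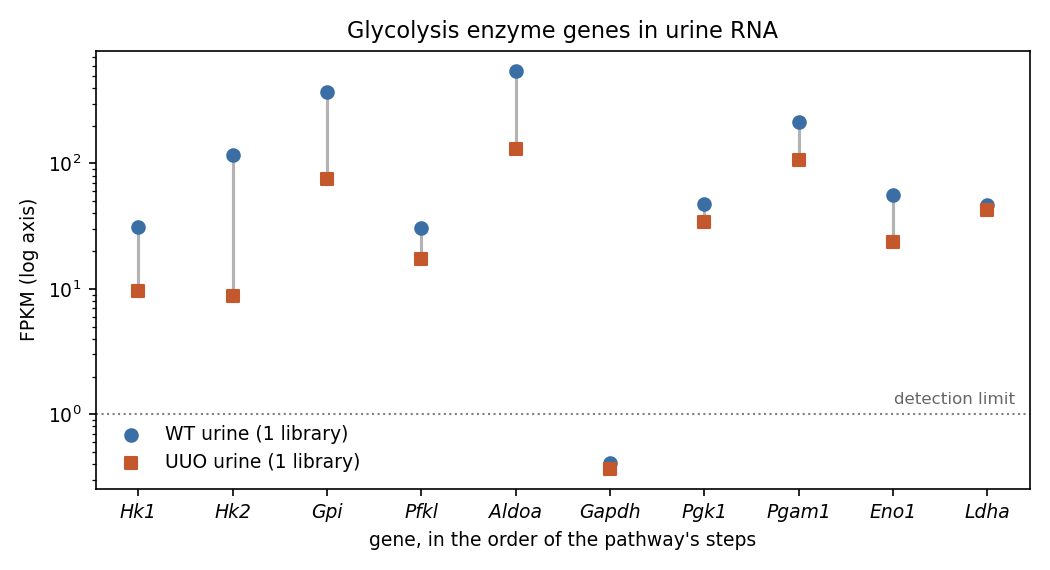
Level of each glycolysis gene in WT urine (circles) and UUO urine (squares), in FPKM on a log axis, 1 library each, with grey lines joining the values of a gene. Hk2 spans the longest line, from 116 to 8.78, Ldha the shortest among detected genes, from 46.8 to 42.4, and Gapdh lies under the detection limit of 1 in both.

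Promoter sequences were searched for ACGTG and GCGTG, the core of the sites that hypoxia-inducible factors bind and through which several glycolysis genes are known to be switched on. RefSeq sequences of the 250 bases before a start (GRCr8) were found for 9 of the 10 members, at 13 starts, and Pgk1 had no entry. Both strands were searched, so that CACGTG counts as overlapping matches on either strand. Of the 9 members 7 held a match before at least 1 start (77.8%, against 39.6% of all 27457 genes and 57.3% of the 8100 detected genes with a sequence), and of the 13 starts 8 did (61.5%), against 36.7% of all 33469 starts and 55.9% of the 8522 starts of genes detected in either library. Ldha, the detected member that differed least as deposited, and Hk2, the member that differed most, are shown with Pgam1 between them, as the member nearest to 2-fold. Capitals mark the matches.
Ldha, chr1:106507842-106508091, plus strand: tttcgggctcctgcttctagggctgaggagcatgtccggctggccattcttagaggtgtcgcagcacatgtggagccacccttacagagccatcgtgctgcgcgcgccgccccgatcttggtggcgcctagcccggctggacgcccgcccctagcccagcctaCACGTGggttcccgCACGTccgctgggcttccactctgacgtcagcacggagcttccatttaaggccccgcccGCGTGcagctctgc
Pgam1, chr1:250672902-250673151, plus strand: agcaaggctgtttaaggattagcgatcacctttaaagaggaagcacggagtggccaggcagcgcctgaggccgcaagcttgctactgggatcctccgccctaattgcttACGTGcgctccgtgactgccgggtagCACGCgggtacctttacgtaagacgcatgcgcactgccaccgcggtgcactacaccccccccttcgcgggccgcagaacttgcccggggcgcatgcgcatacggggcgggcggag
Hk2, chr4:116841276-116841525, minus strand: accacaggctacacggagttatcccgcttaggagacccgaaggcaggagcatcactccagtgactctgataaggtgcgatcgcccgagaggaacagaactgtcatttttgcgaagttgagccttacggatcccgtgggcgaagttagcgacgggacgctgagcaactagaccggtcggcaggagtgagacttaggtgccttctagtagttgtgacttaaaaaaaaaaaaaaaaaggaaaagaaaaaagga
The Ldha window held 4 matches at 3 separate places, the Pgam1 window 2 and the Hk2 window 0, and that of Gpi also held 0. Of the other members, Gapdh had 3 matches, Pfkl 2, and Eno1 1 at each start. Hk1 had 0 and 1 at its starts, and Aldoa 0, 0 and 1. The windows shown were chosen by the measured difference, and a link between matches and differences was not tested. A match is a run of letters, and neither a match nor its absence says anything on binding.

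Hexokinases add a phosphate to glucose and keep it in the cell. Hk2, the inducible isozyme of muscle, fat and growing cells (gene ID 25059, chromosome 4 from 178237860 to 178288505, build rn5), measured 116 FPKM in WT and 8.78 FPKM in UUO urine. This was 13.2-fold lower in UUO urine, a difference of -3.58 and the greatest of the 10 genes, and it moved Hk2 from place 4 to place 9 in the order of their levels. Hk1, the widespread isozyme that red cells also use (ID 25058, chromosome 20 from 33703471 to 33770600), measured 30.9 FPKM in WT and 9.54 FPKM in UUO urine, a difference of -1.60. Both hexokinase genes were thus lower, but Hk2 more so, and the ratio of Hk2 to Hk1 was 3.75 in WT and 0.921 in UUO urine. Such a ratio within a library does not depend on its scaling.

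Gpi and Pfkl act next, on the way from glucose 6-phosphate to fructose bisphosphate. Gpi, which interconverts glucose 6-phosphate and fructose 6-phosphate (ID 292804, chromosome 1 from 91207007 to 91234934), measured 372 FPKM in WT and 75.4 FPKM in UUO urine, 4.93-fold lower with a difference of -2.29. Pfkl, the liver-type subunit of phosphofructokinase, the committed step of the pathway (ID 25741, chromosome 20 from 13563778 to 13585932), had 30.5 and 17.2, a difference of -0.79. Gpi was the second highest member in WT and the third in UUO urine, while Pfkl was near the lower end in both.

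Aldoa, the muscle-type aldolase that splits fructose bisphosphate (ID 24189, chromosome 1 from 205208169 to 205247261), was the highest member in both libraries. It measured 549 FPKM in WT and 129 FPKM in UUO urine, 4.24-fold lower with a difference of -2.08. Its listed locus is shared by 20 entries, but the gene's own entry held all but a small part of the locus in both libraries, 99.97% in WT and 95.02% in UUO urine.

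The detected members that act after aldolase, Pgk1, Pgam1, Eno1 and Ldha, differed less than Hk2, Gpi and Aldoa did. The differences did not follow the order of the steps. Pfkl, which acts before aldolase, was at -0.79 and differed less than Pgam1 and Eno1. The later pyruvate kinase genes Pklr and Pkm, which are not members, were at -2.98 and -1.66. Pgam1, phosphoglycerate mutase (ID 24642, chromosome 1 from 268610732 to 268618280), measured 215 FPKM in WT and 106 FPKM in UUO urine, a difference of -1.01 that only just passed 2-fold. Eno1, enolase (ID 24333, chromosome 5 from 170915847 to 170927269), had 56.3 and 23.8, a difference of -1.21. Pgk1, phosphoglycerate kinase, the first ATP-forming step (ID 24644, chromosome X from 55629810 to 57548519), had 47.8 and 33.9, a difference of -0.48. Its listed locus joins 42 entries, among them the genes Cox7b, Magt1 and Atp7a, and Pgk1 held only 37.4% of the summed FPKM of that locus in WT and 23.8% in UUO urine. The whole locus summed to 128 FPKM in WT and 143 FPKM in UUO urine, so the direction turned, with a difference of 0.16, when those genes were counted too. Ldha, the muscle-type subunit of lactate dehydrogenase (ID 24533, chromosome 1 from 103974907 to 103984640), was nearly level, with 46.8 in WT and 42.4 in UUO urine, a difference of -0.14. From Hk2 to Ldha the members thus ran from 13.2-fold to 1.10-fold lower.

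Gapdh, the enzyme of the first oxidation in the pathway and often used as a reference gene, was under the detection limit in both libraries, with 0.406 FPKM in WT and 0.367 FPKM in UUO urine. It (ID 24383) is listed on chromosome 16, between 25656251 and 25657542, which is 1291 bp long, while the RefSeq table of the GRCr8 assembly places Gapdh on another chromosome with a gene length of 4845 bp. The steps between low FPKM values were fitted as whole fragments, which gave normalising totals of 2116000 for WT and 2446000 for UUO urine. On that scale the Gapdh entry came to a single fragment in each library, within 0.1 of a whole number. With a single fragment per library these values cannot give the level of Gapdh mRNA, and nothing is read from the difference of -0.04. Of 16322 number-only genes with a chromosome in both tables, 304 (1.86%) were listed on a different one, Gapdh being the only member among them. Tpi1, the triose phosphate isomerase gene, was another, and was listed at 0 in both libraries, as were the other 4 genes of the same stretch of chromosome 9 that RefSeq places on the chromosome of Tpi1 (Lrrc23, Eno2, Atn1 and Grcc10).

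RefSeq also lists many copies named after some of the members, most of them pseudogenes, with which reads may be shared. There are 91 such names for Gapdh, 34 for Eno1, 31 for Ldha, 13 for Pgam1 and 9 each for Aldoa and Pgk1, and 0 for Hk1, Hk2, Gpi and Pfkl. Only 3 of these copies, 2 of Gapdh and 1 of Aldoa, have an entry in the deposited table, with a summed FPKM of 1.05 for those of Gapdh in UUO urine and 0 otherwise. Tpi1 and Pkm, which are not members, have 5 and 20 such names. Of these, 1 copy of Tpi1 has an entry, at 0 in WT and 3.70 FPKM in UUO urine, and 0 copies of Pkm do. The 4 members without a named copy were all lower in UUO urine, 3 of them past 2-fold, with a median difference of -1.94, against -0.75 for the 6 with copies. This split was chosen after the values were seen, the 6 genes include Gapdh, and the part of shared reads was not tested.

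The size of the differences depended on how the libraries were scaled. As deposited, the summed FPKM of all features was 0.648 times as high in UUO as in WT urine. Scaling UUO values to the same sum multiplied them by 1.54, scaling by the median ratio of genes detected in both by 1.86, and scaling to the same 75th percentile by 1.95. After each of these Hk2, Gpi and Aldoa were still more than 2-fold lower, and by the median ratio their differences were -2.75, -1.40 and -1.19. Hk1, Pgam1 and Eno1 were still lower under each, but by less than 2-fold after scaling by the median ratio. Pgk1 and Ldha were higher in UUO urine under each of the 3, with Ldha at 0.74 by the median ratio, and Pfkl was higher under the last 2, at 0.06 by the median ratio. By the median ratio 3 of the 9 detected members were lower and 0 higher by 2-fold, against 16.6% and 20.0% of the 7218 genes detected in both libraries. Over genes detected in either library after this scaling, many of which passed through UUO urine alone, the shares were 15.6% and 39.8%. The median of the 9 detected members was then -0.34, against 0 by construction over genes detected in both. The other gene lists were not rescaled, and their differences are given as deposited.

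**Figure D2:**
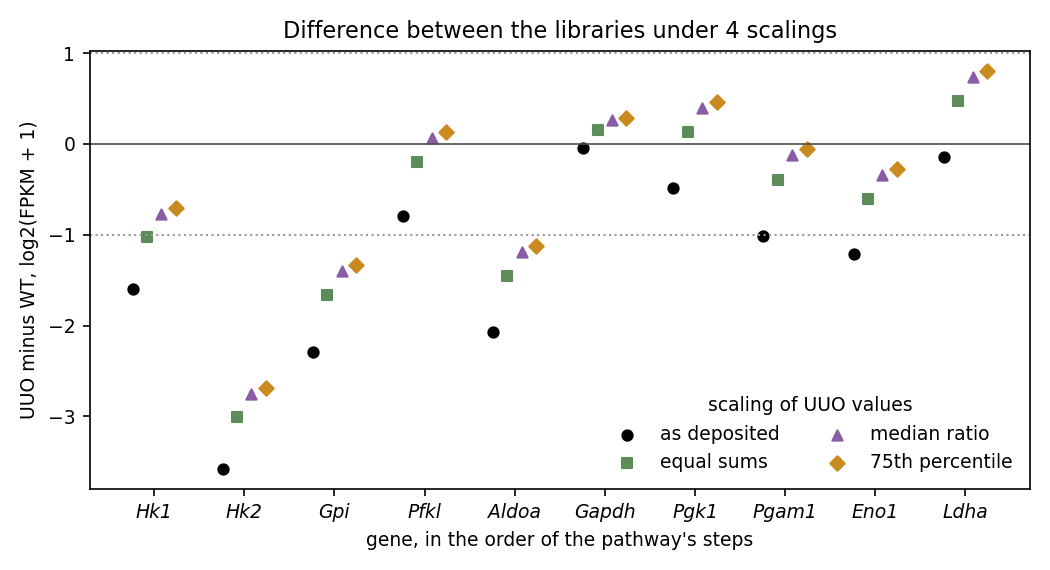
Difference of log2(FPKM + 1), UUO minus WT, for each glycolysis gene as deposited and after 3 rescalings of the UUO values, with dotted lines at 2-fold. Hk2, Gpi and Aldoa stay under the lower line with every scaling, and Pgk1 and Ldha cross 0 with every rescaling, while Gapdh, a single fragment per library, gives no direction.

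A share within a library is free of such a factor. The 10 genes held 0.434% of the FPKM of number-only genes in WT and 0.165% in UUO urine. With the red cell markers left out of the sum the shares were 0.438% and 0.245%, so that the WT share was still the higher. Aldoa alone gave much of it, and without the highest member the shares were 0.271% and 0.117%.

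Isozyme genes of a step were then compared within each library, since a tissue is marked by the isozymes it uses. Of the summed FPKM of Hk1, Hk2 and Hk3, Hk2 held 78.9% in WT and 42.0% in UUO urine, Hk1 21.1% and 45.6%, and Hk3, an isozyme of leukocytes, 0% and 12.4%. Hk3 was listed at 0 in WT and had an FPKM of 2.60 in UUO urine. Among phosphofructokinase genes the share of Pfkl was nearly the same in both libraries, 56.3% and 56.4%, while the muscle type Pfkm went from 34.4% to 25.9% and the platelet type Pfkp from 9.22% to 17.7%. Pfkm measured 18.7 FPKM in WT and 7.92 FPKM in UUO urine, a difference of -1.14 that was -0.96 over its locus, while the values of Pfkp differed by only 0.09 on the log2 scale.

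Aldoc, the brain-type aldolase, was at 2.28 in WT and listed at 0 in UUO urine, and its locus was within 2-fold, at -0.73. Pyruvate kinase, the last step of glycolysis, summed to 50.3 FPKM in WT and to 7.91 FPKM in UUO urine. Pklr, the liver and red cell gene, had 33.9 and 3.42, a difference of -2.98. Which cells the Pklr RNA came from was not tested. Pkm, the gene of most other tissues, had 16.4 and 4.50, a difference of -1.66. Summed over the 7 entries of its listed locus Pkm was at 28.1 in WT and 24.5 in UUO urine, a difference of -0.19 for the whole locus. As deposited, lactate dehydrogenase was the step that differed least, while by the median ratio Ldha lay furthest of the members on the higher side. Ldhb, the heart-type subunit, was at 131 in WT and 137 in UUO urine and at 73.7% and 76.4% of the step. For enolase, Eno3 of muscle was listed at 0 in WT and at 1.91 in UUO urine. Pgam2 of muscle was listed at 0 in WT and at 0.730 in UUO urine, and Pgk2 of testis at 0 in both.

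**Figure D3:**
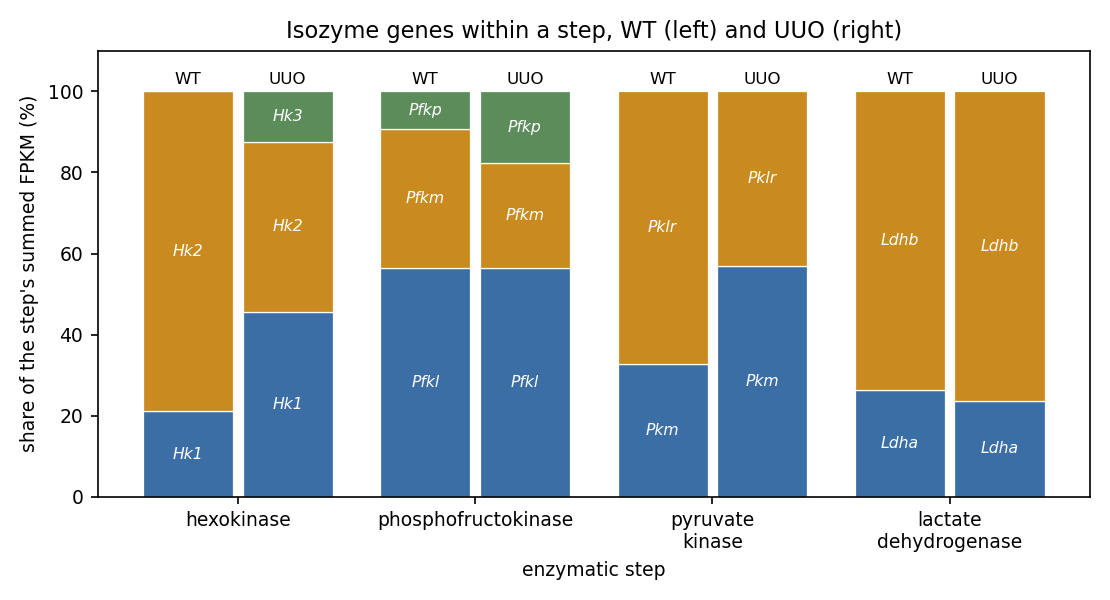
Share of each isozyme gene in the summed FPKM of its step, in percent, for WT (left bar) and UUO urine (right bar) at 4 steps, 1 library each. Hk2 and Pklr hold less of their step in UUO urine, and the share of Pfkl is nearly the same in both.

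Over all genes detected in either library 36.5% were lower and 25.7% higher by 2-fold, with a median of -0.51. Of the 20 other isozyme genes listed, 11 were detected, 4 lower, 3 higher and 4 within 2-fold, with a median of 0.06. The gene furthest on the higher side was Bpgm, which makes 2,3-bisphosphoglycerate, the regulator of oxygen release in red cells. It measured 23.3 FPKM in WT and 199 FPKM in UUO urine, 8.51-fold higher with a difference of 3.04. The ratio of Bpgm to Pgam1, which act on neighbouring intermediates, was 0.108 in WT and 1.87 in UUO urine. The 10 red cell markers were higher too, by 2.17 to 8.30 on the log2 scale, with Hbb at 877 in WT and 54777 in UUO urine and Alas2, the first enzyme of haem synthesis in red cells, at 0.317 and 414. The part of red cells in the Bpgm value was not tested.

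Of 9 regulators of glycolysis 7 were detected, 2 lower, 2 higher and 3 within 2-fold. The shares over all genes detected in either library were 36.5% lower and 25.7% higher by 2-fold. Pfkfb2, a kinase and phosphatase that sets the level of fructose 2,6-bisphosphate, measured 89.1 FPKM in WT and 9.41 FPKM in UUO urine, a difference of -3.11. Myc, a transcription factor that drives glycolytic genes, had 24.3 and 6.21, a difference of -1.81. Hif1a, the hypoxia-inducible factor, had 29.6 and 18.4, a difference of -0.66. Tigar and Pfkfb4 were listed at 0 in WT and at 1.70 and 1.05 in UUO urine, and Pfkfb4 was within 2-fold when summed over its locus, at 0.61.

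Of 12 transporters of glucose and lactate 9 were detected, 4 lower, 3 higher and 2 within 2-fold. This is to be read beside 36.5% lower and 25.7% higher over all genes detected in either library. The apical carriers of the proximal tubule were on the lower side, with Slc5a1 at 5.13 in WT and 0.174 in UUO urine, Slc5a2 at 3.55 and 0.169 and the fructose carrier Slc2a5 at 14.0 and 1.61. Slc2a2, the basolateral glucose carrier of the same cells, was at 2.43 and 0.340. On the higher side Slc2a1, the widespread glucose carrier, was at 2.73 in WT and 12.0 in UUO urine, a difference of 1.80. The lactate carriers Slc16a3 and Slc16a7 were listed at 0 in WT and at 3.72 and 3.84 in UUO urine. Summed over its listed locus of 15 entries Slc16a3 was lower in UUO urine, with a difference of -1.28. Summed over their loci, Slc5a2 and Slc2a2 were within 2-fold, with differences of -0.67 and -0.86.

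Gluconeogenesis runs the pathway backwards in the proximal tubule. Of its 8 genes 4 were lower, 1 higher and 3 within 2-fold, with a median of -1.09. Among genes detected in either library 36.5% were lower and 25.7% higher by 2-fold, with a median of -0.51. Among genes detected in both, as all but Fbp2 were, 42.8% were lower and 7.01% higher, with a median of -0.81. Pck1, the rate-limiting enzyme, measured 627 FPKM in WT and 196 FPKM in UUO urine, a difference of -1.67, and its mitochondrial form Pck2 had 117 and 13.1, a difference of -3.06. G6pc1, which releases free glucose, had 17.2 and 3.93, and Pc, pyruvate carboxylase, 61.8 and 23.9. Fbp2, the muscle form of fructose bisphosphatase, was listed at 0 in WT and at 10.04 in UUO urine. Of the proximal tubule markers 8 of 9 were lower in the same library, among them Miox at 925 and 245 and Slc34a1 at 32.7 and 6.24. The part of proximal tubule RNA in the glycolysis values was not tested.

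**Figure D4:**
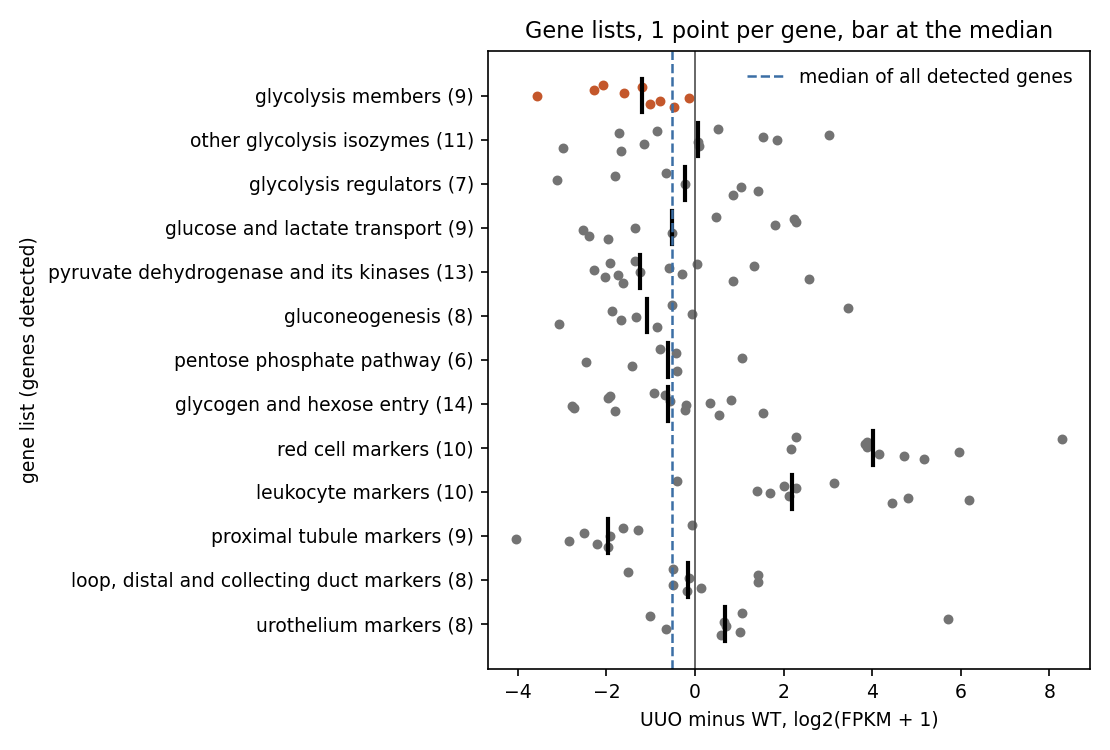
Difference of log2(FPKM + 1), UUO minus WT, of each detected gene in 13 lists, with a black bar at the median of each list and a dashed line at the median of all detected genes, -0.51. All detected glycolysis genes lie left of 0, with a median of -1.21. The nearest medians are those of the pyruvate dehydrogenase (-1.25) and gluconeogenesis (-1.09) lists. Pentose phosphate (-0.61) and glycogen and hexose entry (-0.62) come next, and proximal tubule markers are further down, at -1.96. All red cell markers and all but 1 of 10 leukocyte markers lie to the right.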

How the data were processed

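Per the labels, the authors aligned and assembled reads with Bowtie2 2.0.6, TopHat2 2.0.9, Cufflinks 2.1.1 and Cuffdiff 2.1.1 on rn5, and the deposited table gives 1 FPKM value per feature and library. The total behind the scaling is not stated, and how reads of near-identical copies were divided is not given in the sources used here. The labels name Trizol for urine RNA, the study's methods a column kit. The authors' own fold changes, p-values and q-values were not used.

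Of 16484 number-only gene IDs 16329 (99.1%) matched the RefSeq table (GRCr8), which gave symbols, named copies and gene order. Differences of log2(FPKM + 1) were computed with Python 3.11.15, pandas 2.3.3 and numpy 2.4.6, and understate the change of low genes. To see what depth lies behind the values, FPKM of assembled entries that share their locus with no other, 400 to 1200 bp long, was fitted as whole fragments with 1 total and 1 length offset per library. Within 0.1 of a whole number were 93.5% of 186 values (WT) and 99.5% of 3530 (UUO). The fit and the rescalings were tested on simulated data.

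Members and lists were chosen with earlier results of these data known. Named were all members, Tpi1, Pkm, isozymes of a member's step, and per list and direction at most the 4 detected genes with the greatest difference of at least 2-fold. Hif1a, Cd3e, Hbb, Alas2, Miox, Slc34a1 and the genes that share a locus or stretch with Pgk1 or Tpi1 were named after their values were seen. Some isozyme genes are not reported here.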

Additional observations from a re-analysis of the deposited data

Results flagged for a closer look

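In RefSeq order Gapdh lies between Iffo1 and Mrpl51. Between these genes the deposited table lists 3 stretches on chromosome 4, none with a number-only gene, and they were looked at because they carry signal that none of the comparisons used. From 224693577 to 224698335 (4758 bp, against a Gapdh gene length of 4845 bp) lie 9 noncoding entries. They summed to 16.1 FPKM in UUO urine and were all listed at 0 in WT urine, with 3 entries above 0 and 12.5 in NONRATT042199 alone. The next stretch, 5 entries from 224700032 to 224717700, went the other way, with 45.8 FPKM in WT and 0.772 FPKM in UUO urine, and the last, 2 entries from 224718501 to 224722949, had 0 in WT and 0.191 in UUO urine. Whether any of these fragments come from Gapdh was not tested.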

How the results depend on the processing

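No paired analysis was possible because WT and UUO hold a single library each. A log2 difference was taken as unchanged when it kept its sign and its side of 1, and a count or share when it stayed within 1.5 times. The number of members lower by 2-fold was 6 as deposited and 4 with sums made equal, which is just within 1.5 times. It was 3 after rescaling by the median ratio, 3 by the 75th percentile and 3 with a 4-fold limit. Without the 6 members with named copies it was also 3, a setting chosen after seeing the data. The number higher was 0 under every alternative. The median of the 10 genes was -0.50 with sums made equal, -0.23 with the median ratio and -0.17 with the 75th percentile. Each rescaling multiplies all UUO values by 1 factor, which moves every difference upward. The share of the 10 genes in all features was 0.186% in WT and 0.0875% in UUO urine. Without the 10 highest genes of the library it was 0.262% in UUO urine, and without Aldoa it was 0.271% in WT urine. Of 50 gene values recomputed under 5 settings, 30 were unchanged, 8 crossed 1 and 12 changed sign. Gapdh, at 1 fragment per library, is included for completeness. After rescaling to equal sums Gapdh was at 0.16, Pgk1 at 0.13 and Ldha at 0.47. By the median ratio Pfkl was at 0.065, Gapdh at 0.26, Pgk1 at 0.39 and Ldha at 0.74, and by the 75th percentile they were at 0.13, 0.29, 0.46 and 0.81. Pgk1 was at 0.16 when summed over its locus, which adds other genes. Hk1, Hk2, Gpi, Aldoa, Pgam1 and Eno1 were lower under all 5. Values under 3 fragments were taken as not told from 0 at this depth, a limit that was set and not measured. For a gene of 1000 bp this is 1.63 FPKM in WT and 1.49 FPKM in UUO urine. The detection limit of 1 FPKM is lower, so counts of detected genes can include genes under 3 fragments.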

Other observations

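Genes that take glucose carbon out of glycolysis are read here against 42.8% lower and 7.01% higher by 2-fold over all genes detected in both libraries. Of 13 genes of the pyruvate dehydrogenase complex, its regulators and the mitochondrial pyruvate carrier, 7 were lower, 2 higher and 4 within 2-fold, with a median of -1.25. Pdhb, a subunit of the complex, measured 107 FPKM in WT and 21.3 FPKM in UUO urine, and Dld, the subunit shared with other complexes, 72.6 and 18.5. The kinases that switch the complex off went different ways, with Pdk2 at 58.6 and 16.9, Pdk3 at 13.3 and 2.52, and Pdk4 listed at 0 in WT and at 4.99 in UUO urine. Mpc2, a subunit of the carrier, was higher, at 24.9 and 64.5.

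Of 6 pentose phosphate genes 2 were lower, 1 higher and 3 within 2-fold, with Taldo1, transaldolase, at 421 in WT and 157 in UUO urine, Rpia lower with a difference of -2.46 and Rpe at 2.67 and 6.63. Of 14 detected genes of glycogen and of hexose entry 5 were lower, 1 higher and 8 within 2-fold. Khk, the fructokinase of liver and proximal tubule, measured 416 FPKM in WT and 59.9 FPKM in UUO urine, a difference of -2.77. Pgm1, which links glycogen to glucose 6-phosphate, had 54.0 and 7.28, and Pygl, the liver glycogen phosphorylase, was higher, at 7.89 and 24.9.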
